A study of Mus musculus with 23 samples.

Results

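The cytosolic ribosomal protein genes were taken by name alone. A probe of the normalized table was a member when its symbol was Rpl or Rps followed by a number, with or without a closing a, x or y, or was a symbol of the acidic stalk proteins (Rplp). The rule used no measured value. It took 70 probes of 54 genes, 30 of the large and 24 of the small subunit, from 25697 probes that carry 18096 symbols. All 70 probes matched a current mouse transcript record by accession, and 1 of them has a newer symbol (Rps3a is now Rps3a1). The stalk gene Rplp0 has a probe only under an older symbol, so it was not counted. For the 13 genes with several probes, the brightest probe stands for the gene.

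RNA was read on 23 Illumina mouse bead arrays. All cells share the 129X1/SvJ x 129S1 background, and the ESCs are 1 line, R1. Lin-ckit+Sca-1+ (LKS) cells, the fraction that holds the hematopoietic stem cells of marrow, were sorted after 7 days of differentiation from Static flasks (3 arrays), Spinner flasks (3 arrays) and Synthecon rotating vessels (8 arrays). They were compared with native LKS cells from the bone marrow (BM, 3 arrays) of mice aged 10 weeks and from the fetal liver (FL, 3 arrays) at embryonic day 15, and with undifferentiated ESCs at day 0 (3 arrays). Lineage-positive cells were removed ahead of sorting from the native samples only. ESCs had been grown on feeder fibroblasts. Below, native is the mean of BM and FL, and dynamic is the mean of Spinner and Synthecon. The labels call every array a biological replicate, the 8 Synthecon arrays included, but name no separate cultures or animals, so a p-value measures only the spread between these samples.

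The Synthecon arrays, labelled as 8 replicates, fell by their values into 2 sets, near repeats where they shared a slide. Within each of 2 sets of 4 arrays, arrays on the same slide differed by a median of 0.0625 to 0.0724 log2 units, against 0.163 to 0.177 between sets on the same slide and 0.0882 to 0.442 between replicates of the other groups. Across slides the medians were larger, 0.201 to 0.218 within a set and 0.255 to 0.282 between sets. Over the members alone, same-slide pairs overlapped, at 0.0284 to 0.0706 within a set and 0.0642 to 0.113 between sets. Synthecon therefore entered the tests as 2 set means (n = 2), and the fit held 17 samples. The arrays lie on 3 slides, and all 3 ESC arrays are on slide 1. Slide 3, which holds Static replicate 3 and Synthecon replicates 3 to 8, gave the lowest summed intensities, 6745000 to 7552000 for its Synthecon arrays against 12330000 to 13830000 for the Synthecon arrays of slide 2. Between 9785 and 11204 probes lay above background on an array, at a detection p under 0.01. As to the labelled cells, 5 of 5 pluripotency markers were never above background in BM and 4 of 5 in FL, but all 5 were detected in ESC, Static, Spinner and Synthecon, where they held 0.288 to 0.305%, 0.022 to 0.362%, 0.336 to 0.401% and 0.443 to 0.645% of the summed intensity. Of the markers of the sort only Ly6a (Sca-1) was read, and it was above background on all 23 arrays. Of 5 blood markers, Coro1a and Laptm5 were above background on all 23 arrays, Spi1 on 8, Ptprc (CD45) on 5 and Cd48 on none. They held 0.207 to 0.342% of the summed intensity in BM and 0.177 to 0.353% in FL. Their share was 0.0184 to 0.117% in Static and 0.0476% at most in the other groups.

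Each cytosolic ribosome pairs a small subunit, which reads the mRNA, with a large subunit, which joins the amino acids, and most of these proteins are present once per ribosome, the stalk proteins in more copies. Their mRNAs are among the most abundant of any growing cell, and many begin with a run of pyrimidines, the 5′ terminal oligopyrimidine (5′ TOP) motif, through which mTOR signalling controls their translation. In blood they are best known from Diamond-Blackfan anaemia, in which loss of 1 copy of such a gene, most often RPS19, limits red cell production in humans.

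The ribosomal protein genes sat near the top of the scale in every group. Levels are log2 normalized signals, which run from 4.90 to 15.09 on every array with a median of 6.40. A total of 48 of the 54 genes (88.9%) were above background on all 23 arrays, compared with 27.9% of all probes. The mean level was 14 or more for 29 genes, between 10 and 14 for 18, and under 10 for 7. Member probes made up 30 of the 80 probes of the array with a mean of 14 or more, and 25 to 36 of the 100 brightest probes on each array. A probe's level also depends on how well its sequence binds, so levels were not ranked between genes. Many of these mRNAs have near-identical processed copies in the genome, and the probe sequences were not available here to tell which copies a probe reads.

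Between groups, the range of most members was small on this scale. The median range of the 6 group means was 0.44 log2 units over the 54 genes, 0.984 over the 7170 probes above background on every array and 0.582 over all probes. It was under 0.5 for 31 genes and over 1 for 11. In the moderated F test over the 6 groups, 18 of 54 genes (33.3%) differed at an adjusted p under 0.05, and 43.5% of all probes did. Of the 29 genes with a mean of 14 or more, 4 differed and none had a range over 1, and of the 25 genes below that level, 14 differed. Of the 50 other probes with a mean of 14 or more, 20 differed (40%) and 8 had a range over 1, and their median range was 0.43. Whether the small ranges of members near the top of the scale mean that their mRNAs were even was not tested. On each array 14 to 34 member genes lay within 2-fold of the brightest signal of that array. Among the 48 genes always above background, 21 were highest in Spinner, and 15 were lowest in Synthecon, 12 in ESC and 11 in BM. These ranks were not counted over all probes. Of the 8 Synthecon arrays 6 lie on slide 3, where Rps3a and Rpl29, both lowest in Synthecon, were low. The map of values by array shows the contrast between the even upper rows and the varied lower rows.

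**Figure D1:**
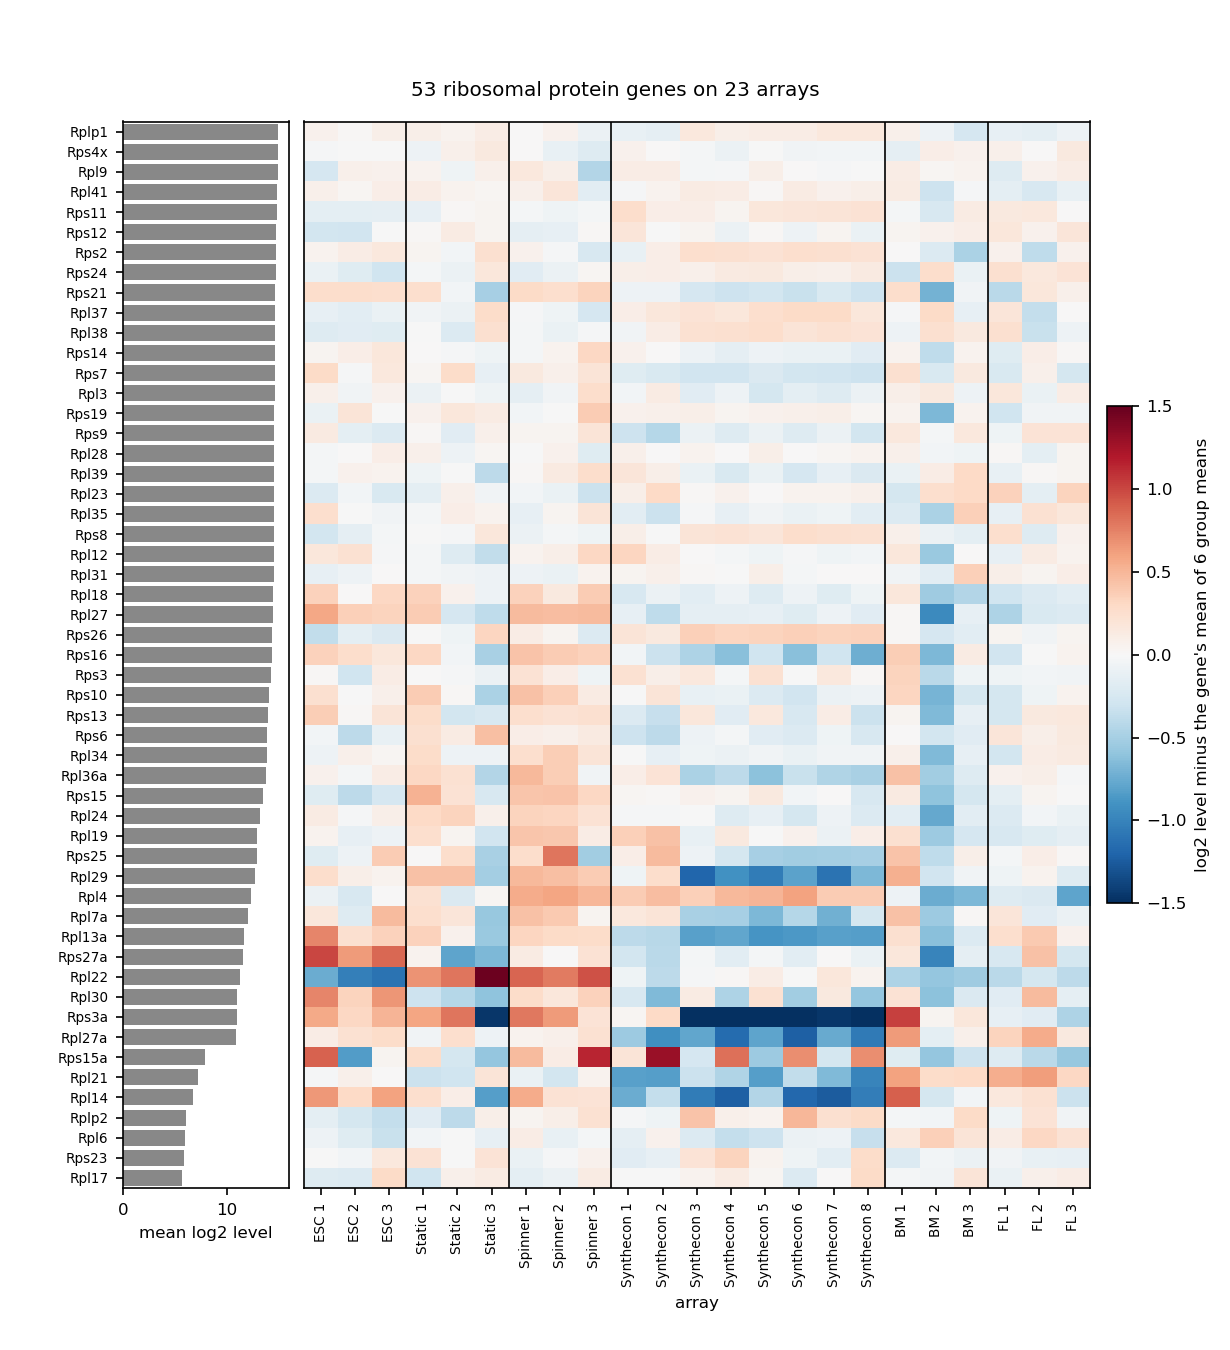
Log2 level of 53 ribosomal protein genes on 23 arrays, each minus the gene's mean of the 6 group means (colour), with the mean log2 level as bars on the left; genes are ordered by mean level, black lines part the groups, and colours stop at 1.5 in either direction. The 29 genes with a mean of 14 or more vary little, while Rpl22 and the genes that are low on slide 3 (Rps3a, Rpl29) stand out below them.

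What the members share in sequence was read at their annotated starts. RefSeq promoters (GRCm38.p6) were found for 42 of the 54 genes, with 49 starts, and searched on the transcribed strand for a C followed by at least 4 C or T. The start base and those after it formed such a run at 9 of 49 member starts (18.4%) and at 2.51% of all 32851 promoters. A run began within 10 bases of the start at 31 of 49 (63.3%) and at 30.7% of all promoters. The windows below, shown because they pair genes with and without the motif among those described here, run from 10 bases before the start to 19 after it, with the run in capitals. Rpl38 lies at chr11:114668570-114668599 (plus strand), Rps6 at chr4:86857348-86857377 (minus), Rps10 at chr17:27635225-27635254 (minus), Rpl4 at chr9:64173377-64173406 (plus), Rpl24 at chr16:55966265-55966294 (plus) and the 2 annotated starts of Rpl22 at chr4:152325716-152325745 and chr4:152324426-152324455 (both plus).
Rpl38: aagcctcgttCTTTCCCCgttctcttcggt
Rps6: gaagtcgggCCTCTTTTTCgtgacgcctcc
Rps10: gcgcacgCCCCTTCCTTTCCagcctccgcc
Rpl4: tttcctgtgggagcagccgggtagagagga
Rpl24: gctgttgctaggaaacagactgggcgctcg
Rpl22 first start: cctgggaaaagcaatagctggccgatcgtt
Rpl22 second start: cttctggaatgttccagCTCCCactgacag
In the first 3 genes the start base lies in the run, which in Rps6 and Rps10 begins ahead of it. Rpl4, Rpl24 and the first listed start of Rpl22 hold no such run in the window. The second listed start of Rpl22, which lies upstream of the first, holds a short run after the start base. A match or its lack says only which letters are in the window.

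Against native LKS cells, ESC-derived LKS cells and ESCs had 2 to 7 ribosomal protein genes past the test in each direction. The share of members called was below that of all probes, an order that 3 alternatives given below turned for the higher calls. Of the 7170 probes above background on every array, 16.8% were called higher and 19.1% lower in Static than in native cells. In dynamic culture these shares were 27.3% and 25.3%, and in ESC 24.3% and 21.4%. For the 3 alternatives, shares of the probes above background on every array were not counted. In bulk RNA, fewer cells of a type and less RNA per cell cannot be told apart. Static against native called 4 genes higher and 2 lower of 54. Of all probes 12.9% were called higher and 13.8% lower, and the median difference was 0.016 over the members and −0.03 over all probes. Dynamic against native called 7 higher and 3 lower, with 18.9% and 18.2% of all probes, and the members' median was 0.04. ESC against native called 4 higher and 4 lower, with 16.2% and 15.4% of all probes, and a median of 0.09. These comparisons share the native samples. Rpl22 and Rpl21 passed the test in all 3, as did Rpl6, whose probe was below background on every array, and 1 of the calls in Static was Rps23, also below background throughout. The BM arrays differed among themselves, BM replicates 1 and 2 by a median of 0.494 over the members, against 0.233 and 0.288 for the other pairs. Without BM replicate 1, the members called higher than native numbered 7 (13%) in Static, 13 (24.1%) in dynamic culture and 11 (20.4%) in ESC, above the 12.5%, 18.8% and 16.5% of all probes in that fit. For dynamic culture the members' share of higher calls was also above that of all probes with all 23 arrays as samples (24.1% and 21.2%) and with scaling before the offset (25.9% and 23.5%).

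The remaining comparisons called 0 to 4 members in either direction. Static against dynamic called 2 higher (6.55% of all probes) and 0 lower (7.64% of all probes) by limma, with 6 genes at an unadjusted p under 0.05. Static against ESC called 2 higher and 2 lower, against 6.37% and 6.81% of all probes. Dynamic against ESC called 4 higher (7.41%) and 2 lower (3.70%), against 6.04% and 4.21% of all probes. Of the probes above background on every array it called 9.26% higher and 6.81% lower. Rplp2, among the members called higher, was below background on every array. BM against FL called 0 in either direction by limma, as did each alternative run, the methods' t-test included, with 0.841% of all probes higher and 0.385% lower. In that comparison Rps6 (−0.28, adjusted p = 0.36) and Rps24 (−0.26, adjusted p = 0.50) were the 2 members at an unadjusted p under 0.05.

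The counts depended on how the arrays were scaled. With unnormalized intensities scaled to the same median of detected probes before an offset and log2, dynamic against ESC had 22 members higher and 4 lower, with 8.71% and 4.67% of all probes, and dynamic against native had 14 higher and 3 lower, with 23.5% and 15.1% of all probes. The members' medians were then 0.39 and 0.24, while those of all probes were 0.01 and 0.02. With centring after log2, the splits were 29 to 5 for dynamic against ESC, 21 to 2 for dynamic against native, 18 to 3 for Static against ESC, 2 to 8 for ESC against native and 2 to 0 for Static against native. Under that centring, the shares of all probes called higher and lower in these 5 comparisons were 56.1% and 5.20%, 59.7% and 12.5%, 42.7% and 7.30%, 14.3% and 16.3%, and 14.4% and 8.57%, and the median difference of all probes was 0.66, 0.47, 0.50, −0.32 and 0.21. For dynamic against ESC the members' median changed sign with the scaling, being −0.02 in the quantile-normalized values, and for ESC against native it was −0.18 under both other scalings.

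**Figure D2:**
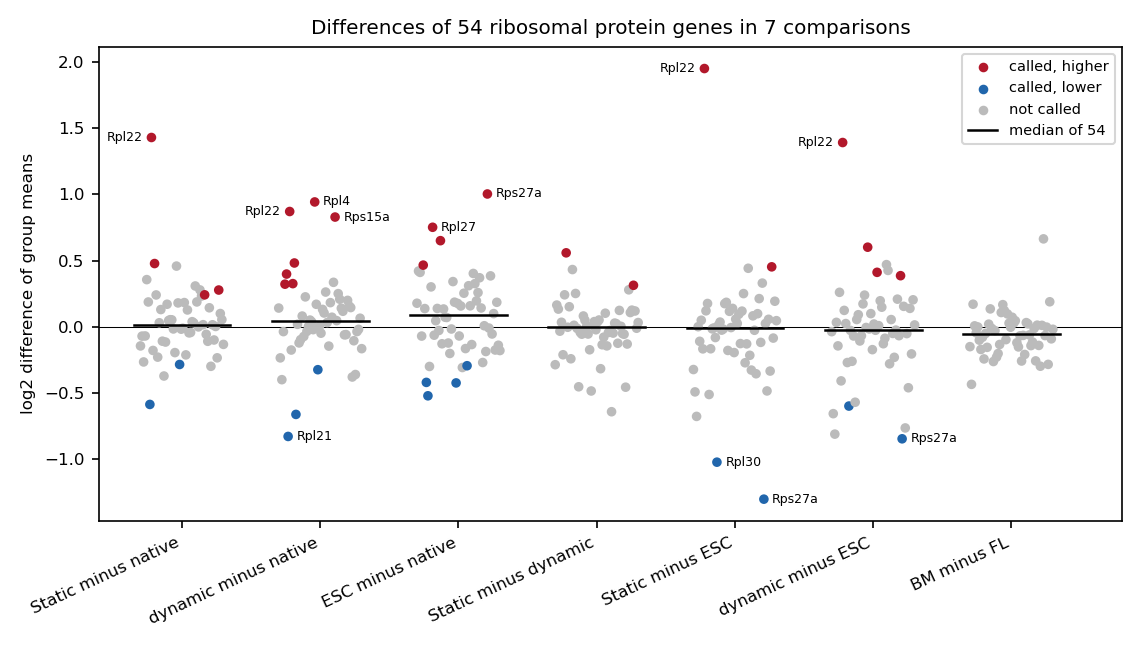
Log2 difference of group means for each of the 54 genes in 7 comparisons (points; red and blue, adjusted p under 0.05, higher and lower; grey, not called; black line, median). The medians lie near 0, between −0.06 and 0.09. Rpl22 is the highest point in Static against native, dynamic and ESC and in dynamic against ESC, and the lowest in ESC against native.

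Rpl22 differed most. It encodes a protein of the large subunit that binds RNA, is not needed for mouse survival and, in mice, is needed for the development of αβ T cells. Its level was 10.53, 10.26 and 10.16 in ESC, 11.96, 12.09 and 12.75 in Static and 12.15, 12.06 and 12.24 in Spinner. Synthecon arrays ran from 10.89 over a median of 11.28 to 11.45. BM gave 10.81, 10.70 and 10.74, and FL gave 10.87, 11.02 and 10.88. All Static and Spinner arrays lay above every other array, and all ESC arrays lay below every other array. The group means were 12.26 ± 0.43 in Static and 12.15 ± 0.09 in Spinner (SD, n = 3 each), which did not differ beyond their spread, then 11.26 ± 0.10 in Synthecon (n = 2), 10.92 ± 0.08 in FL, 10.75 ± 0.06 in BM and 10.32 ± 0.19 in ESC (n = 3 each). The lowest Synthecon array lay within the range of FL.

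Against native cells Rpl22 was 2.69-fold higher in Static (log2 1.43 ± 0.16 SE, adjusted p = 4.6e-06, limma) and 1.83-fold higher in dynamic culture (0.87 ± 0.14, adjusted p = 8.5e-05), and both calls held in 26 of 26 alternatives. ESCs were 0.52 below native cells on the log2 scale (adjusted p = 0.018), a call lost without ESC replicate 2 (adjusted p = 0.064) or ESC replicate 3 (0.099). From ESC the difference was 1.95 to Static (3.86-fold, adjusted p = 1.0e-05) and 1.39 to dynamic culture (2.62-fold, adjusted p = 0.00012), and both calls were lost under the methods' t-test (adjusted p = 0.17 and 0.059). Within slide 1, where ESC, Static and Spinner lie together, it was 1.71 for Static and 1.79 for the 2 Spinner arrays, the only dynamic ones there. Static was 0.56 above dynamic culture (adjusted p = 0.032). That call was lost in 10 of 26 alternatives, among them without Static replicate 3 (0.32, adjusted p = 0.17) and without slide 3 (0.42, adjusted p = 0.095), and it holds unlike comparisons: within slide 1 the 2 Static arrays differed from the 2 Spinner arrays by −0.09, and within slide 3 the 1 Static array differed from the 6 Synthecon arrays by 1.42. Pluripotency markers, given above, were high in ESC as well as in Spinner and Synthecon, and their part in the Rpl22 difference was not tested. Static arrays also carried markers of other cells: 4 erythroid genes held 0.0346 to 0.415% of the summed intensity there, 0.19 to 0.592% in native cells and 0.00528% at most in the other groups. For 5 fibroblast markers the share was 0.00789 to 0.0635% in Static and 0.00485 to 0.024% in ESC, for 4 hepatocyte markers it was 0.00652 to 0.0609% in Static and 0.00434% at most elsewhere, and for 4 endothelial markers 0.00333 to 0.0194% in Static and 0.00483% at most elsewhere. Not every listed gene followed these shares: Alb, Afp and Kdr were above background on no array. Pecam1 was higher in Spinner and Synthecon (8.7 and 9.2) than in Static (8.6). Thy1 was highest in ESC (9.67) and lowest in Static (6.38). Whether these genes mark such cells, and any part of such cells in the Rpl22 values, was not tested. Its paralog Rpl22l1 was above background on all arrays and passed the test in none of the 7 comparisons, with group means from 8.03 in Synthecon to 9.29 in BM.

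**Figure D3:**
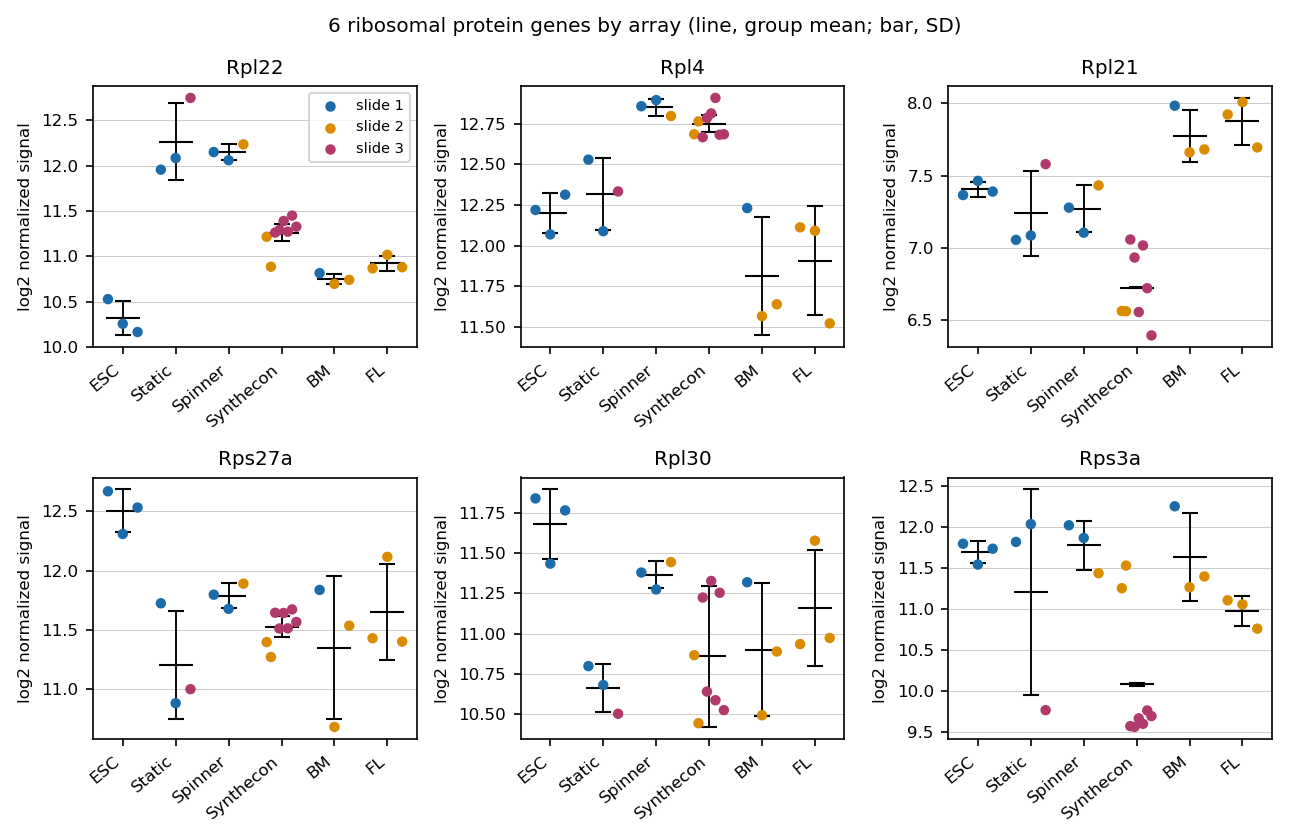
Log2 normalized signal of 6 ribosomal protein genes by array, coloured by slide, with group means and SDs (Synthecon over 2 set means). Rpl22 is at 11.96 or more on every Static and Spinner array and at 10.53 or less on every ESC array; Rps3a is between 9.56 and 9.77 on all slide 3 arrays.

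Other members differed between native LKS cells and some or all of the ESC-derived groups. Rpl4, of the large subunit, was 12.86, 12.90 and 12.80 in Spinner and 12.67 to 12.91 (median 12.73) in Synthecon. It was 12.23, 11.56 and 11.64 in BM and 12.11, 12.09 and 11.52 in FL. All dynamic arrays lay above all native arrays, and the difference was 0.94 ± 0.14 SE (1.92-fold, adjusted p = 6.0e-05), held in 26 of 26 alternatives. It was 0.65 within slide 1, for 2 Spinner arrays against 1 BM array, and 0.97 within slide 2, for 1 Spinner and 2 Synthecon arrays against 5 native arrays. Static gave 12.53, 12.09 and 12.33 for Rpl4, which overlapped native cells (0.46, adjusted p = 0.051). Against ESC (12.22, 12.07 and 12.31) Rpl4 was 0.60 higher in dynamic culture (adjusted p = 0.035), a call lost in 9 of 26 alternatives, with scaling before the offset (0.062) or without any 1 ESC array, Spinner array or Synthecon set (up to 0.13). A further, dim Rpl4 probe was above background on 7 arrays. Its means were 7.32 in Spinner, 6.37 in Synthecon and 6.57 in native cells.

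Rpl21, a large subunit protein whose probe was dim and above background on 19 of 23 arrays (4 of 8 in Synthecon and all others), was lower in ESC-derived than in native cells. It was 7.98, 7.66 and 7.68 in BM and 7.92, 8.01 and 7.69 in FL. It was 7.28, 7.11 and 7.43 in Spinner, 6.39 to 7.06 (median 6.64) in Synthecon, 7.06, 7.09 and 7.58 in Static and 7.37, 7.46 and 7.39 in ESC. Every native array lay above all other arrays. The difference from native cells was −0.83 ± 0.13 SE in dynamic culture (adjusted p = 6.3e-05, held in 26 of 26 alternatives), −0.59 ± 0.15 in Static (adjusted p = 0.0065, lost with centring after log2, 0.059) and −0.42 ± 0.15 in ESC (adjusted p = 0.037). Fits with a block took all 23 arrays as samples, which without a block left this ESC call at an adjusted p of 0.048. The ESC call was lost in 10 of 26 alternatives: with slide (0.19) or replicate number (0.058) as a block, and without any 1 ESC array (up to 0.11), Spinner replicate 1 (just over the threshold), BM replicate 1 (0.073), FL replicate 1 (0.060), FL replicate 2 (0.075) or Synthecon set B (just over it). A further Rpl21 probe, above background on 15 arrays (1 of 8 in Synthecon), gave −0.57 and −0.82 for Static and dynamic culture. Neutrophil granule genes (Mpo, Elane, Ctsg and Prtn3) were also highest in native cells, at 0.35 to 0.704% of the summed intensity against 0.0487% at most elsewhere, and their part was not tested.

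Rpl24, which helps to bridge the subunits, was modestly higher in Static and Spinner than in native cells. The Synthecon mean of 13.18 was near that of FL (13.17), and the ESC mean was 13.35. It was 13.60, 13.63 and 13.37 in Static, 13.62, 13.61 and 13.51 in Spinner and 13.03 to 13.29 in Synthecon, against 13.14, 12.52 and 13.14 in BM and 13.08, 13.25 and 13.19 in FL. The Static arrays lay above all native arrays (0.48 ± 0.12 SE, adjusted p = 0.0088), and the dynamic arrays overlapped them (0.33, adjusted p = 0.025). The dynamic call was lost without Spinner replicate 1 (adjusted p = 0.052), FL replicate 1 (0.054) or Synthecon set A (0.099), and both calls were lost under the methods' t-test (0.11 and 0.099). Rpl27, Rpl18, Rpl19 and Rps15a were the other members called higher in dynamic than in native cells (0.48, 0.32, 0.40 and 0.83), and their arrays overlapped. The Rpl27 call was lost under the methods' t-test (adjusted p = 0.079) and without FL replicate 1 (0.056), Synthecon set A (0.088) or set B (0.056). Rpl27a was called lower by 0.66 with overlapping arrays.

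Rps27a was higher in undifferentiated ESCs than on every other array. It encodes ubiquitin fused to a small subunit protein and so supplies both. Its level was 12.67, 12.31 and 12.53 in ESC, 11.73, 10.88 and 11.00 in Static, 11.80, 11.68 and 11.89 in Spinner and 11.27 to 11.67 (median 11.54) in Synthecon. BM gave 11.84, 10.68 and 11.54 and FL gave 11.43, 12.12 and 11.40. ESC exceeded native cells by 1.00 ± 0.24 SE (adjusted p = 0.0043), though with slide as a block and all 23 arrays the difference was 0.70 (adjusted p = 0.060), against an adjusted p of 0.00049 for the 23 arrays without the block. It was 0.67 within slide 1, where 1 native array lies. Static differed from ESC by −1.30 ± 0.28 SE (adjusted p = 0.0066; −1.20 within slide 1), a call lost under the methods' t-test (0.23). Dynamic culture differed from ESC by −0.84 (adjusted p = 0.043), lost in 10 of 26 alternatives, with slide as a block (0.064) or without any 1 ESC array, Spinner array or Synthecon set or BM replicate 3 (up to 0.14). A further, dim probe of Rps27a was not well above background in native cells or Static. On it ESC was at least 1.14-fold higher than native cells and at least 1.26-fold higher than Static (adjusted p = 0.00034 and 0.0056). Such bounds set the bright group's mean against the lowest signal counted as detected on the dim group's arrays, or the probe's own where higher.

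Rpl30, a large subunit protein, was 11.84, 11.44 and 11.77 in ESC and 10.80, 10.68 and 10.50 in Static, with no overlap. Static differed by −1.02 ± 0.23 SE (adjusted p = 0.0092; −0.94 within slide 1), lost under the methods' t-test (0.18). ESC against native gave 0.65 with overlapping arrays (adjusted p = 0.021), lost with slide as a block (0.37), under the methods' t-test (0.092) and without ESC replicate 1 (0.096) or 3 (0.083). Rpl27 was 15.09, 14.86 and 14.84 in ESC, above all native arrays, which ran from 13.56 to 14.53. Its difference of 0.75 (adjusted p = 0.0047) was 0.24 (adjusted p = 0.41) with scaling before the offset, 0.26 (0.19) with centring after log2 and 0.46 (0.096) with slide as a block. Rps12, of the small subunit, was lower in ESC (14.55, 14.54 and 14.81) than on all native arrays, each at 14.86 or more (−0.29 ± 0.07, adjusted p = 0.0045). With slide as a block or scaling before the offset that call was lost, with adjusted p up to 0.087.

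Rps6, the small subunit protein that S6 kinase phosphorylates downstream of mTOR, was 14.21, 14.09 and 14.42 in Static and 13.93, 13.57 and 13.86 in ESC. Static was 0.45 ± 0.11 SE above ESC (adjusted p = 0.013), a call lost without ESC replicate 2 (0.055), Static replicate 3 (0.064) or slide 3 (0.068), with scaling before the offset (0.0502) and under the methods' t-test (0.30). Its differences of 0.28 from native and 0.31 from dynamic cells (adjusted p = 0.040 and 0.044) passed the test in 9 of 26 alternatives each, and without Static replicate 3 both adjusted p were 0.20.

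A list of 26 genes known from blood disease or from special roles had 15 members on the array. Of these, 5 (33.3%) passed the F test, Rpl22, Rpl27, Rps6, Rps26 and Rpl13a, the same share as of all 54 members. Of the Diamond-Blackfan anaemia genes on it, Rps19 had group means of 14.43 to 14.74, Rps7 of 14.47 to 14.87, Rps10 of 13.92 to 14.44 and the brightest Rps24 probe of 14.56 to 14.96, and none passed the F test (adjusted p = 0.44, 0.14, 0.40 and 0.12). Rps26 did (adjusted p = 0.029), with 14.12 ± 0.11 in ESC and 14.66 ± 0.01 in Synthecon, and its difference between dynamic culture and ESC was 0.39 (adjusted p = 0.025) with overlapping arrays. Rpl27, described above, is also on that list. Rpl38, which in mice favours the translation of Hox mRNAs, ranged over group means of 14.48 to 14.84. Rpl3, of the catalytic core, ranged from 14.58 to 14.75, Rpl39, at the exit tunnel, from 14.49 to 14.78, the X-linked Rps4x from 14.85 to 15.03 and the stalk gene Rplp1 from 14.82 to 15.02. None of these 5 passed the F test. Rpl13a, which can leave the ribosome and silence inflammatory mRNAs, did (adjusted p = 0.014), with 12.28 ± 0.26 in ESC and 11.12 in Synthecon. It passed no comparison of 2 conditions.

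Several genes gave a different reading from a further probe. For Rps24, the bright probe, designed to NM_011297.2, was at 14.43 to 15.03 on all arrays. A further probe, designed to another transcript record (NM_207634.1), was 11.14, 10.71 and 10.99 in ESC and at most 10.60 elsewhere. Its differences were 0.83 for ESC against native, −1.19 for Static against ESC and −1.05 for dynamic culture against ESC (adjusted p = 0.0070, 0.0058 and 0.0071), with no overlap in any of the 3. The human gene is known for alternative splicing at its end. For Rpl38, a further probe of the same transcript record was 11.94, 11.41 and 11.76 in ESC and 11.39, 10.05 and 9.89 in Static (−1.26, adjusted p = 0.034). It was 1.12 higher in ESC than in native cells (adjusted p = 0.012). For Rpl23, a further probe at 11.42 to 11.56 in Static and 10.58 to 11.03 in BM rose by 0.68 in Static and 0.58 in dynamic culture against native cells (adjusted p = 0.000464 and 0.000325), while the brightest probe passed neither test. A dim further probe of Rps19 was highest in ESC (7.38, 7.17 and 7.71). Whether these probes read other isoforms or copies was not tested.

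**Figure D4:**
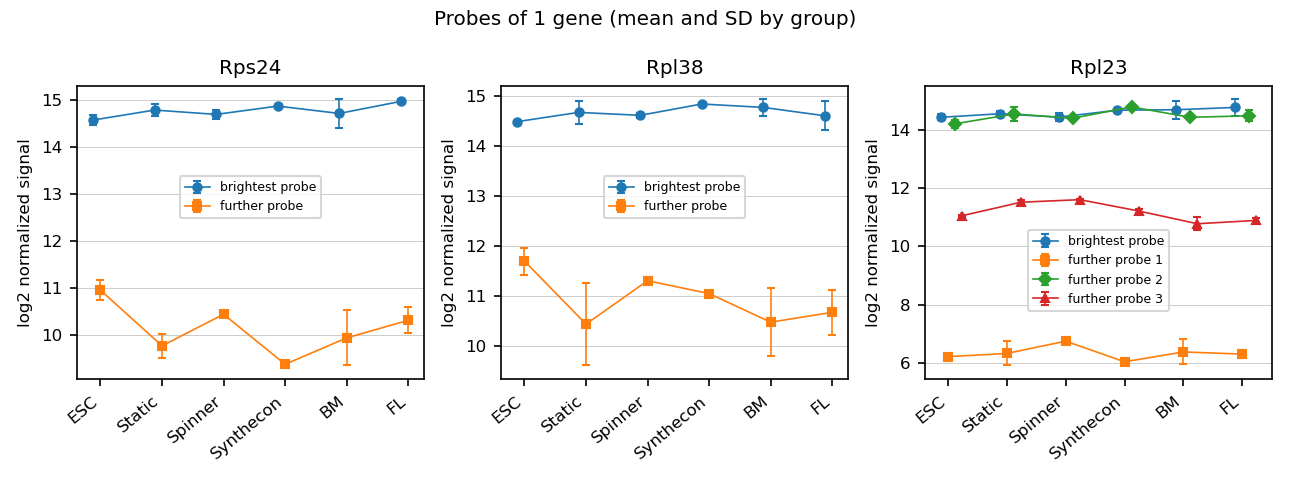
Group mean and SD of the log2 normalized signal for each probe of Rps24, Rpl38 and Rpl23 (Synthecon over 2 set means). The bright probes of Rps24 and Rpl38 stay between 14.48 and 14.96 in all groups, while the further probes are highest in ESC, at 10.95 and 11.70.

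Members shifted between slides about as often as other probes. Each Synthecon set had arrays on slides 2 and 3, which could be compared, though that a set is 1 RNA was inferred from its values and is not stated in the labels. In both sets, 6 of 54 genes (11.1%) were lower on slide 3 by more than 0.5, and none was higher by that much. Of the 7170 probes above background on every array, 784 (10.9%) shifted by that much in the same direction in both sets, 735 of them lower. The slide 3 minus slide 2 differences in the 2 sets were −1.58 and −1.91 for Rps3a and −1.04 and −1.06 for Rpl29. Rpl7a, Rpl36a and Rps15a were also among the 6. Static replicate 3, also on slide 3, was below the mean of the other Static arrays (−2.16 for Rps3a). Rps3a, for example, was 11.81 and 12.03 on the Static arrays of slide 1 and 9.77 on slide 3. None of these 6 is among the genes called in a comparison with Static, and Rps15a alone was called in dynamic against native cells (0.83, adjusted p = 0.034). Without slide 3, the counts were 4 higher and 1 lower for Static against native, 7 and 4 for dynamic against native, 4 and 3 for dynamic against ESC, and 0 and 0 for Static against dynamic culture.

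The probes of 4 genes, Rpl6, Rpl17, Rplp2 and Rps23, were never above background on any array. Their means over all arrays were 5.73 to 6.10, so these genes were not measured here. Small differences of Rpl6 (−0.28, −0.32 and −0.42 against native cells in Static, dynamic culture and ESC), Rps23 (0.24 in Static against native) and Rplp2 (0.41 in dynamic culture against ESC) passed the test, but both sides lay below background and no fold is given. Rpl14 was above background on 11 arrays, with group means from 6.04 in Synthecon to 7.46 in ESC. It passed the F test (adjusted p = 0.027) and no comparison of 2 conditions.

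The share of the array's summed intensity that fell on the 70 probes ran from 5.59 to 9.80% over all arrays. It was 6.05 ± 0.46% in ESC, 6.39 ± 0.41% in BM, 7.33 ± 0.26% in FL, 7.33 ± 0.63% in Static and 7.51 ± 0.66% in Spinner (SD, n = 3 each). In Synthecon it was 8.79 ± 0.32% (n = 2), but this value moved with the slide, at 7.53 and 7.58% on slide 2 and 8.78 to 9.80% on slide 3, where the summed intensity was lower. On slide 1 the Spinner arrays gave 7.73 and 8.03%, the Static arrays 6.66 and 7.42%, ESC 5.59 to 6.52% and the BM array 6.63%. On slide 2, FL ran from 7.16 to 7.62%, BM from 5.91 to 6.62% and the Spinner array gave 6.77%. The Static array of slide 3 gave 7.92%.

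**Figure D5:**
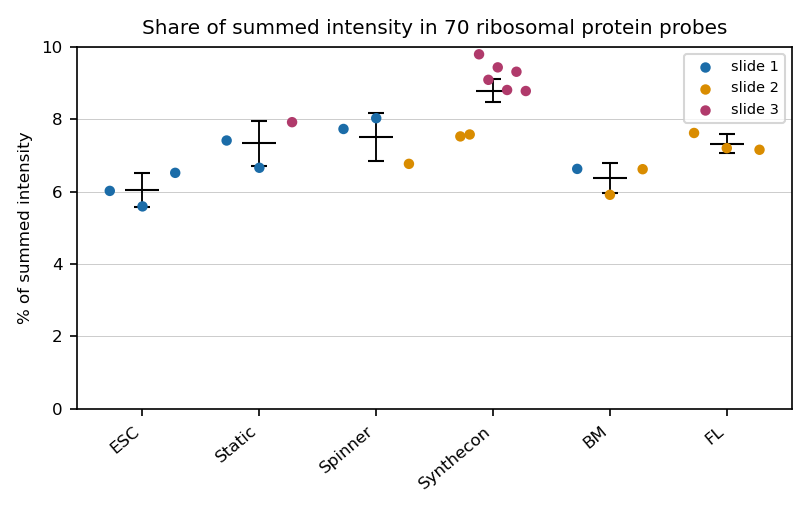
Percent of each array's summed background-subtracted intensity in the 70 ribosomal protein probes, coloured by slide, with group means and SDs (Synthecon over 2 set means). The 6 Synthecon arrays of slide 3 lie at 8.78 to 9.80%, above the 2 of slide 2 at 7.53 and 7.58%.

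Paralogs of the ribosomal proteins were counted separately. Of 11 listed, 7 were read. Against native cells 4 were higher in dynamic culture and 4 in ESC, 1 was higher in Static, and none was lower. Of all probes 18.9%, 16.2% and 12.9% were higher in these comparisons and 18.2%, 15.4% and 13.8% lower. Their median differences were 0.67, 0.62 and −0.05. Rps4l, an S4-like gene carried by the array under the symbol Rps4y2, was above background on 1 of 3 BM arrays and on all others. It was 6.45, 6.98 and 6.67 in BM and 9.20, 9.25 and 9.73 in FL. It was 12.12, 11.74 and 12.19 in ESC, 12.11, 11.21 and 11.17 in Static, 12.50, 12.66 and 12.06 in Spinner and between 12.50 and 12.82 in Synthecon. Every FL array lay above every BM array, and every other array lay above FL. Against native cells it was higher by 3.45 in Static, 4.47 in dynamic culture and 3.97 in ESC (adjusted p = 1.2e-08, 1.0e-10 and 3.25e-09), in all 26 alternatives. BM differed from FL by −2.70 on the log2 scale (adjusted p = 2.0e-05), a call lost under the methods' t-test (0.15). Rps27l, a p53-induced paralog of Rps27, was 14.65, 14.70 and 14.50 in ESC and 12.43 to 14.02 in native cells (1.10, adjusted p = 0.0020). Rpl7l1, a paralog of Rpl7, was also higher in ESC and dynamic culture (0.62 and 0.58). The Rpl39l probe was above background on 4 arrays, and no fold is given for it.

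The genes that make and use ribosomes were counted beside the ribosomal proteins, and differences between these lists were not tested. Of 31 genes for ribosome biogenesis and RNA polymerase I, 17 were higher and 1 lower in ESC than in native cells (median 0.66), 10 were higher and none lower in dynamic culture (median 0.25), and none was higher and 4 lower in Static (median −0.03). Against ESC, 14 were lower in Static (median −0.73), among them Bop1 (−2.05) and Nop2 (−1.73), which process the rRNA of the large subunit. Of 75 mitochondrial ribosomal proteins, 24 were lower and 2 higher in Static than in ESC (median −0.47), and 20 were higher and 13 lower in dynamic culture than in native cells (median 0.02). Mrps31 (1.42) and Mrpl20 (−1.10) were the extremes of the latter. Of 30 translation factors, 8 were higher and 1 lower in dynamic culture than in native cells, including Eif2s2 (1.69), a subunit of the factor that brings the initiator tRNA, and Eif5a (−0.62). Over all probes the medians of these comparisons lay between −0.03 and −0.01. The shares of all probes called higher and lower were 16.2% and 15.4% in ESC, 18.9% and 18.2% in dynamic culture and 12.9% and 13.8% in Static against native cells, and 6.37% and 6.81% in Static against ESC.

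Of 16 genes that control ribosome production through growth signals, 7 were higher and 4 lower in dynamic culture than in native cells, where 18.9% and 18.2% of all probes were. Myc, which drives ribosome genes, was above background on 7 arrays, none of them Static, Spinner or Synthecon, and native cells were at least 1.74-fold above dynamic culture and at least 1.68-fold above Static (adjusted p = 1.4e-07 and 9.3e-06). Eif4ebp1, which restrains the translation of TOP mRNAs, was higher in dynamic culture (1.34). Of 10 genes of p53 and its targets, the branch that unassembled ribosomal proteins can activate through Mdm2, 8 were higher in Static, 8 in dynamic culture and 9 in ESC than in native cells, and none was lower (medians 1.16, 1.34 and 1.64). Of all probes 12.9%, 18.9% and 16.2% were higher in these comparisons. Zmat3 (3.26 in dynamic culture) and Phlda3 (2.37) led that list. None of these 5 lists had a gene called between BM and FL.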

How the data were processed

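RNA of 23 samples was read on Illumina MouseRef-8 bead arrays. The authors summarized beads in BeadStudio, subtracted background, quantile-normalized the arrays and deposited log2 values. The deposited intensity values were background-subtracted but not normalized between arrays, and the deposited detection p-value of each probe compares it with negative control beads. The authors' group means and comparisons (log ratios, p-values, flags) were not used. Quantile normalization gives every array the same distribution, so shifts common to most genes are not seen.

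Log2 values were fitted in limma 3.58.1 (R 4.3.3) with a mean per group, an intensity trend in eBayes and Benjamini-Hochberg adjustment over 25697 probes, and called at an adjusted p under 0.05. Every adjusted p in the text is from this fit unless another test is named. Synthecon arrays were averaged into 2 sets (replicates 1, 3, 5 and 7, and replicates 2, 4, 6 and 8). Members, lists and sets were chosen with earlier results of these data known. Named genes were, per comparison, the 4 largest rises and falls among called members whose arrays did not overlap, members with a role in blood or the ribosome, members not above background throughout or with disagreeing probes, and up to 4 genes of each companion list. Others named were chosen after their values were seen. Alternatives were all 23 arrays as samples, no trend, a filter on dim probes, centring after adding 50 and log2, the methods' t-test, slide or replicate number as a block (each with all 23 arrays as samples), each probe counted, and each replicate or set left out. Replicate numbers 4 to 8 occur only in Synthecon, so the block by number could not set those arrays against same-numbered arrays of other groups. Scaling before the offset and leaving out slide 3 were added after the data were seen. Intensities without background subtraction were not used. The fit was tested on simulated data. Values of 1 member gene are not reported here, though it is in the counts.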

Additional observations from a re-analysis of the deposited data

Results flagged for a closer look

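Among the 54 genes, 7 had 1 Synthecon array far from the other 7 by Dixon's ratio, the gap to the nearest array over the whole range, above its critical value. How often this rule flags probes of all genes was not counted, so the count says nothing particular to these members. Chance flags about 1 in 20 groups of independent arrays, a rate that need not hold for these arrays, which form 2 sets, near repeats within a slide. All 7 flags fall on arrays 1 and 2, the only Synthecon arrays of slide 2. Array 1 stood apart for Rpl12 (ratio 0.544, level 14.88 against 14.49 to 14.67), Rpl38 (0.531, 14.61 against 14.77 to 14.92) and Rps2 (0.576, 14.63 against 14.84 or more). Array 2 stood apart for Rpl22 (0.586, 10.89 against 11.22 to 11.45), Rpl23 (0.735, 14.89 against 14.59 to 14.67), Rpl27 (0.65, 14.13 against 14.33 to 14.43) and Rpl35 (0.557, 14.30 against 14.47 to 14.60).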

How the results depend on the processing

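Counts of member genes are given as higher and lower where they moved by over 1.5 times. With all 23 arrays as samples, 13 were higher in dynamic against native, 1 lower in Static against dynamic, 4 higher in Static against ESC, 4 lower in dynamic against ESC, and 30 differed over the 6 groups. Without the intensity trend, 1 was higher in Static against dynamic. With the filter on dim probes, 1 was lower in Static against native, 1 lower in Static against dynamic and 4 lower in dynamic against ESC. With centring after log2, the counts were 2 and 0 in Static against native, 21 higher in dynamic against native, 2 and 8 in ESC against native, 0 and 1 in Static against dynamic, 18 higher in Static against ESC, 29 and 5 in dynamic against ESC, and 36 over the 6 groups. Under that centring Rpl6 in dynamic against native turned to 0.21 (adjusted p = 0.23, limma) and Rps23 in dynamic against ESC to 0.84 (adjusted p = 0.0015), both probes being below background. With scaling before the offset, chosen after seeing the data, 14 were higher in dynamic against native, 2 higher in ESC against native, 0 and 1 in Static against dynamic, 1 higher in Static against ESC, and 22 and 4 in dynamic against ESC. Without slide 3, also chosen after seeing the data, 1 was lower in Static against native and 0 higher in Static against dynamic. With slide as a block, a fit that also took all 23 arrays as samples, the counts were 2 and 1 in Static against native, 0 higher in ESC against native, 5 lower in Static against dynamic, 5 higher in Static against ESC, and 7 and 1 in dynamic against ESC. Under the methods' t-test 2, 4 and 2 were higher than native in Static, dynamic culture and ESC, 0 were higher in Static against dynamic, 0 and 0 passed in Static against ESC, and 2 and 1 in dynamic against ESC. With each of the 70 probes counted, 4 were lower in Static against native, 9 higher in ESC against native, 7 lower in Static against ESC, 5 lower in dynamic against ESC, and 28 differed over the 6 groups.

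Leaving out 1 sample at a time gave 2 (without Static 1) to 7 (without BM 1) higher and 1 (without Static 1 or 3) to 2 lower in Static against native, 3 (without Spinner 1 or Synthecon set B) to 13 (without BM 1) higher and 3 to 4 lower in dynamic against native, and 2 (without ESC 1 or 3) to 11 (without BM 1) higher and 2 (without ESC 2 or 3) to 6 (without BM 1 or 2) lower in ESC against native. It gave 0 to 2 higher and 0 to 1 lower in Static against dynamic, 1 (without ESC 2) to 3 higher and 2 to 3 lower in Static against ESC, 1 to 5 higher and 0 to 6 (without Static 3) lower in dynamic against ESC, 0 in BM against FL, and 11 (without ESC 1, ESC 3 or Synthecon set B) to 23 (without BM 1) over the 6 groups. Replicate numbers share no stated litter or day, and they did not pair the samples throughout: over 30 pairs of same-numbered samples r ran from −0.43 to 0.38 and was over 0.1 in 11. The 10 pairs of replicate 1 were all above 0, 7 of them over 0.1, against 1 and 3 of 10 over 0.1 for replicates 2 and 3. With the replicate block and all 23 arrays, 1 count moved, to 1 lower in Static against dynamic, as it did with the 23 arrays alone, and 31 of 34 named calls stayed past the threshold, against 33 with the 23 arrays alone. The causes of these changes were not tested. The number of arrays, with 2 Synthecon sets, limits the precision, and probes near background, and possibly those near the top of the scale, understate differences.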
